A study of Mus musculus with 7 samples.

Results

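Keratin genes were followed through single cells of whole mouse noses taken at embryonic day 14.5. The members are all genes of the deposited matrices whose symbol is Krt followed by a number and at most 1 letter, 53 of the 30323 genes that all libraries share with a unique symbol. Wild-type (WT) noses came from CD1 IGS mice, and 5 libraries carry that label. A further 2 libraries, here called Prokr2Cre libraries 1 and 2, came from a single nose labelled ProKR2iCre/R26tdTomato on a B6;SJL background, with the allele Prokr2em1(cre)Cfe and the reporter allele Gt(ROSA)26Sortm14(CAG-tdTomato)Hze, in which Cre made from the Prokr2 gene turns on the red fluorescent protein tdTomato. Both sets are embryos of the same age, and all suspensions were frozen and thawed before capture in droplets. The Prokr2Cre suspension was run both after fluorescence sorting and without it, the labels do not say which library is which, and these libraries are therefore set beside the WT values with no test.

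Keratins are the intermediate filament proteins of epithelial cells. Each filament is built from pairs of an acidic type I and a basic type II protein, so cells that make filaments transcribe at least 1 gene of each type. Simple epithelia such as airway lining and supporting cells are known for Krt8 and Krt18, the dividing basal layer of stratified epithelia such as skin for Krt5 and Krt14, and its differentiating upper layers for Krt1 and Krt10. The nose at this age holds skin and the lining of its vestibule, simple respiratory epithelium, and olfactory epithelium with its sustentacular (supporting) cells, progenitors and neurons.

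All 53 members were matched by identifier to the GENCODE vM21 annotation of GRCm38, and they form a pair of tight clusters. The cluster on chromosome 11 holds 26 type I genes between positions 99279959 and 100269871, a stretch of 990 kb. On chromosome 15, 25 type II genes lie between 101347444 and 102004482, a stretch of 657 kb. Krt18 is the only type I member outside the chromosome 11 cluster. It lies on the plus strand at 102028180 to 102032027 of chromosome 15, 23697 bases beyond Krt8 (101996698 to 102004482, minus strand), its partner in filaments. Krt222, not assigned to either type here, lies at 99232761 to 99244085 of chromosome 11.

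Promoter sequence from RefSeq (GRCm38.p6) was matched to 36 of the 53 members. Shown here are the 150 bases before the start of 4 members whose levels follow different patterns below, and whose RefSeq and GENCODE starts lie within 20 bases of each other. They are Krt5 of stratified epithelium, Krt10 of its upper layers and of non-epithelial cells, Krt23 of sustentacular and some stratified surface cells, and Krt79. They lie at chr15:101712906-101713055, chr11:99389365-99389514, chr11:99493121-99493270 and chr15:101940325-101940474, all on the minus strand, and are written 5′ to 3′ with the motif ATAAA, the core of a TATA box, in capitals.
Krt5: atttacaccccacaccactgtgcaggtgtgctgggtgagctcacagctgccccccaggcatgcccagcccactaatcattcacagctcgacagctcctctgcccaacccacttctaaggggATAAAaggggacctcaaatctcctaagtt
Krt10: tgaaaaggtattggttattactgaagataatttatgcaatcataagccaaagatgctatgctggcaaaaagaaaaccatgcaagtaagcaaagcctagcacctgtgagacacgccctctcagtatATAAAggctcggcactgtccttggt
Krt23: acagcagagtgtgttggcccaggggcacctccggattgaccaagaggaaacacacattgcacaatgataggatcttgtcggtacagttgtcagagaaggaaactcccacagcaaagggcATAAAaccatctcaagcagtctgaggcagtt
Krt79: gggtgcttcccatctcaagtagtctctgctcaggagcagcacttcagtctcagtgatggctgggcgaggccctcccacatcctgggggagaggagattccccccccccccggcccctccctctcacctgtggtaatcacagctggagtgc

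On the coding strand ATAAA began 29, 25 and 31 bases before the start of Krt5, Krt10 and Krt23, and Krt79 had none in this window. Within the last 40 bases before the start, 22 of 37 keratin promoters (1 member has 2 entries) held ATAAA on either strand, against 8.42% of all 32851 RefSeq promoters of that length. The motif was chosen after the sequences had been seen. GGGCGG, the core of the Sp1 site, was found on either strand within the 150 bases in 2 of 37 keratin promoters and in 28.6% of all promoters. TGANTCA, the AP-1 site, was found in 1 of 37 and in 4.24% of all. These are matches of letters and say nothing about binding.

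Depth ran from 16773781 UMIs (unique molecular identifiers, 1 per captured transcript) for Prokr2Cre library 2 up to 89800259 for WT replicate 1. WT replicates 3 and 4 share 7386 cell barcodes while other pairs of libraries share at most 34, and their counts differed by less than sampling noise, so replicate 3 was left out and n = 4 WT libraries. After filters 29237 cells were kept, 26412 of them WT. Cells were grouped without any keratin gene or keratin partner gene, and classes were named from fixed markers that include no keratin. The clusters counted as epithelial or olfactory had Epcam, the epithelial adhesion molecule, in 43.1% to 100.0% of their cells, and the other clusters in at most 11.1%. WT replicate 1 stands apart: 5223 of its 7215 cells lie in clusters that hold mostly its own cells. Its simple nasal-like cells form a cluster led by Bpifa1 and Reg3g and its sustentacular-like cells a cluster led by Sult1c1 and Cyp2a5, while the corresponding cells of the other WT libraries lie in clusters led by other genes. The clusters with mostly cells of WT replicate 1 include unnamed non-epithelial clusters of 108 and 86 cells, found in this library alone. The first is led by genes known from the developing eye (Atoh7 and Rax), the second by genes known from the developing forebrain (Fgf8, Nkx2-1, Sox1 among its top 10). They are counted as non-epithelial cells here, and values without the unnamed clusters are in the closing section. Results are therefore also given without WT replicate 1 where that changes them. Values per library are listed in the order WT replicates 1, 2, 4 and 5, as CPM, the UMIs of a gene per 1000000 UMIs of the cells summed. A 3′ library counts a transcript once whatever its length, so CPM of different genes were set side by side without scaling by length.

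The epithelial cells carried most of the keratin message. All 53 keratins together came to 4170, 3262, 2965 and 4414 CPM in epithelial cells, with a mean of 3702 ± 698 CPM (SD, n = 4). In cells of the olfactory neuronal lineage (progenitors and neurons) the sum was 485, 428, 326 and 217 CPM. Cells outside the epithelium had 69.0 ± 10.4 CPM (SD, n = 4). The 3 groups of values did not overlap, and 87.87% of the 125580 keratin UMIs in WT cells lay in epithelial cells. Prokr2Cre libraries 1 and 2 had 4644 and 3086 CPM in epithelial cells and 560 and 130.0 CPM in olfactory cells. By class, the stratified surface-like cells stood highest at 9822 ± 1143 CPM, followed by stratified basal-like cells at 3311 ± 889, simple nasal-like cells at 3239 ± 496 and sustentacular-like cells at 2019 ± 324 (SD, n = 4 each). The basal-like and simple nasal-like means differ by less than their spread. The 79 ciliated-like cells, all but 1 of their class and all from WT replicate 1, had 4221 CPM.

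The spread over members was wide. In kept WT cells 52 of the 53 had at least 1 UMI, and the exception was Krt84, a hair keratin. Just 18 reached 100 UMIs and are described one by one: Krt1, Krt4, Krt5, Krt6a, Krt7, Krt8, Krt10, Krt13, Krt14, Krt15, Krt16, Krt17, Krt18, Krt19, Krt23, Krt75, Krt79 and Krt80. Krt75 with 113 UMIs and Krt80 with 117 lie just inside that limit, and Krt77 with 54 and Krt73 with 46 just outside. Summed over WT cells, Krt18 had the most (27345 UMIs), followed by Krt17 (19473) and Krt8 (16248). The order differed between libraries, and in all cells of WT replicate 5 Krt17 (112 CPM), Krt14 (76.2 CPM) and Krt15 (56.8 CPM) stood above Krt18 (56.7 CPM) and Krt8 (37.2 CPM). Type I transcripts outnumbered type II transcripts 2.69 ± 0.28 to 1 in epithelial cells and 1.70 ± 0.32 to 1 in olfactory cells (SD, n = 4). The ratio was 3.80 in basal-like, 2.52 in surface-like, 3.00 in simple nasal-like and 2.54 in sustentacular-like cells, so the types were not matched in transcript number in any of these classes.

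**Figure D1:**
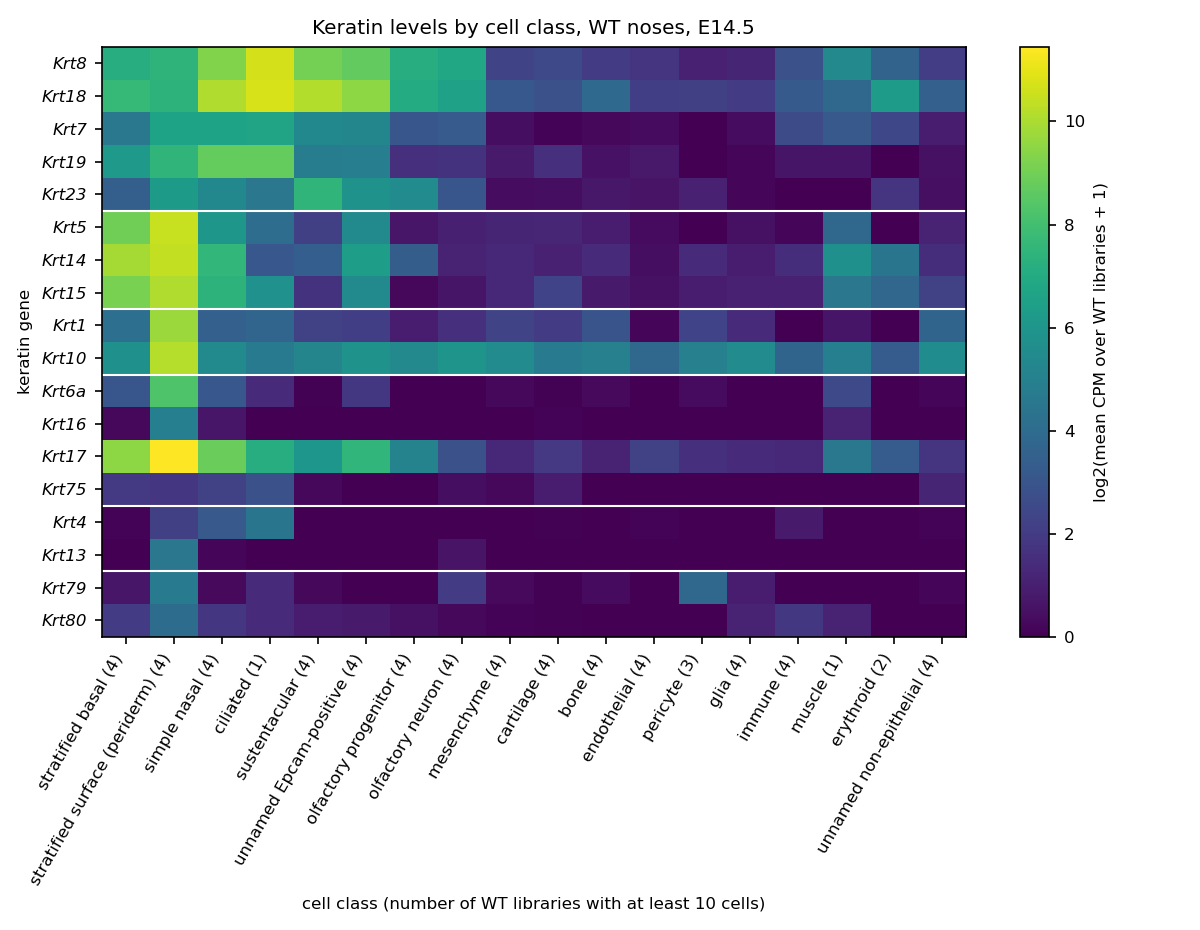
Heat map of keratin levels in WT cells: rows are the 18 described keratins, columns are cell classes with the number of WT libraries that hold at least 10 such cells, and colour is log2 of the mean CPM plus 1. The brightest cells of the basal keratins are in the 2 stratified columns, those of Krt8 and Krt18 in the simple nasal, ciliated and sustentacular columns, and the Krt10 row stays coloured across the non-epithelial columns.

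Epithelial cells were compared with non-epithelial cells on UMIs summed per library and group, with edgeR's quasi-likelihood test and the library as a block. Of 13316 genes tested, 44.8% were called at an adjusted p under 0.05, 22.0% as higher and 22.8% as lower in epithelial cells. Genes used to group or name cells, many of them highly variable, were not tested. Keratins had no part in grouping and so were not removed. Shares given for all genes, here and below, are of this reduced set. Enough UMIs for this test were present for 18 keratins (the described ones without Krt13 and Krt16, plus Krt42 and Krt77), and 17 of them were called higher and none lower. The same 17 had epithelial values above the non-epithelial values without overlap between libraries, as 14.6% of all genes tested had; 12.1% of all genes, and no keratin, were lower without overlap. The median log2 fold change of the 18 tested keratins was 6.54, against -0.01 for all genes. Krt17, a keratin of early and stressed epidermis, differed most, by 8.42 ± 0.40 (SE) on the log2 scale (adjusted p = 4.31e-05). Its levels were 835, 387, 347 and 1118 CPM in epithelial cells and 3.51, 1.75, 0.60 and 1.56 CPM in non-epithelial cells. Krt10 differed least of those called, by 1.93 ± 0.25 (adjusted p = 0.00136). Krt79 was not called (2.98 ± 1.29, adjusted p = 0.105), and its libraries overlapped between the groups; DESeq2 called it (2.82, adjusted p = 0.0287). Krt42 rested on 20 UMIs in epithelial cells against 1 elsewhere, a ratio of 120.0 after scaling to depth with a counting interval of 19.1 to 4960.0. Genes with a large epithelial share had to pass the low-count filter through that group, so the count of 17 describes the testable keratins and not the family. Leaving out WT replicate 1 gave 17 higher of 17 tested.

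In epithelial cells as a whole Krt18 had the highest mean (783 CPM), followed by Krt17 (672), Krt14 (476) and Krt8 (446), but in WT replicate 5 Krt17, Krt14, Krt15 and Krt5 exceeded Krt18. By class, Krt18, type I, reached 936, 1209, 1162 and 1082 CPM in simple nasal-like cells, and 1538, 1047, 1025 and 887 CPM in sustentacular-like cells. The ranges overlap, and the test between these classes gave a log2 difference of 0.06 ± 0.13 (adjusted p = 0.815). Krt8, its type II partner, was at 568, 602, 554 and 722 CPM in simple nasal-like cells and at 642, 536, 429 and 506 CPM in sustentacular-like cells. This difference was also not called (-0.15 ± 0.10, adjusted p = 0.378), and without WT replicate 1 sustentacular-like cells were called lower by 0.29. Stratified cells had less of both than simple nasal-like cells: by 2.57 ± 0.18 on the log2 scale for Krt18 (adjusted p = 3.98e-05) and by 1.93 ± 0.16 for Krt8 (adjusted p = 7.19e-05). Every library showed that order and the ranges did not overlap, but both genes were still well above the non-epithelial level of 8.91 CPM for Krt18 and 4.24 CPM for Krt8. Ciliated-like cells of WT replicate 1 had 1664 CPM of Krt8 and 1709 CPM of Krt18, above every other class of that library. In Prokr2Cre library 1 the 18 simple nasal-like cells had 542 CPM of Krt8 and 665 CPM of Krt18.

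Krt7, Krt19 and Krt23 shared the label of simple keratins but not their distribution. Krt19, the small keratin of ducts and airway that lacks a tail domain, was at 782, 169, 344 and 394 CPM in simple nasal-like cells and at 133, 403, 117 and 66.4 CPM in surface-like cells, so that WT replicate 2 had the opposite order of the other libraries. Sustentacular-like cells had just 19.99, 23.8, 22.5 and 45.6 CPM of Krt19, lower by 3.83 ± 0.32 on the log2 scale (adjusted p = 7.37e-06) and in 4 of 4 libraries. Krt7, a type II keratin of glands and airway, was at 116, 102, 65.8 and 114 CPM in simple nasal-like cells. Its level in surface-like cells, 85.5, 141, 122 and 51.7 CPM, overlapped that range, while basal-like cells had 15.49 to 40.05 CPM. Krt23, a type I keratin first known from gland and gut epithelium, followed another order. It was at 98.4, 132, 343 and 135 CPM in sustentacular-like cells, against 21.7, 43.4, 72.6 and 20.4 CPM in simple nasal-like cells. The difference of 2.12 ± 0.15 on the log2 scale (adjusted p = 2.29e-06) had the same sign in 4 of 4 libraries, although WT replicate 4 was high and WT replicate 1 low in both classes. In Prokr2Cre library 1 the values of Krt23 were 53.7 and 27.8 CPM, from 31 and 18 cells.

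Basal keratins marked the stratified cells. Krt14, type I, was at 951, 1293, 436 and 1195 CPM in basal-like cells and at 425, 118, 152 and 75.3 CPM in simple nasal-like cells. Krt5, type II, was at 483, 762, 111 and 653 CPM in basal-like cells and at 124, 19.9, 79.5 and 40.8 CPM in simple nasal-like cells. The basal-like cells of WT replicate 4, 31 in number, were lowest for both genes, and for Krt5 their value fell inside the simple nasal-like range. Krt15, a type I keratin of basal and stem-like cells, had 419, 842, 100.1 and 928 CPM in basal-like cells and 397, 43.9, 136 and 91.9 CPM in simple nasal-like cells, so these ranges overlapped. With basal-like and surface-like cells joined as stratified cells, Krt5 was higher than in simple nasal-like cells by 3.95 ± 0.40 (adjusted p = 0.000168), Krt14 by 2.85 ± 0.31 (adjusted p = 0.00027) and Krt15 by 2.64 ± 0.47 (adjusted p = 0.00462) on the log2 scale, in 4 of 4 libraries each. Without the library block Krt15 was not called (2.24, adjusted p = 0.118). The simple nasal-like cells of WT replicate 1 had the highest Krt14, Krt15 and Krt19 of any library in that class, and they are the cells of the cluster led by Bpifa1.

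Surface-like cells held as much Krt5 as basal-like cells or more, at 955, 1772, 1551 and 1478 CPM. The order surface-like over basal-like held in 4 of 4 libraries for Krt5, in 4 of 4 for Krt15 (964, 1385, 965 and 1041 CPM) and in 3 of 4 for Krt14 (1679, 1004, 1040 and 1631 CPM, with WT replicate 2 the exception). The class joins 2 clusters. The cluster led by Cstdc5, Stfa3, Krtdap and Dmkn holds 13 of the basal markers, Trp63 among them, and 10 of the surface markers. It gives 126 of the 129 surface-like cells of WT replicate 1. The other is led by Serpinb3a, Lipm and Gabrp and holds 13 surface markers. Both were present with at least 10 cells in WT replicates 2, 4 and 5 and in Prokr2Cre library 1, and their keratins differed. Krt14 was at 1679, 1248 and 1935 CPM in the Krtdap-led cluster against 731, 707 and 754 CPM in the Gabrp-led one. Krt6a, a type II keratin of the outermost and of injured epithelium, went the other way, at 11.9, 0.0 and 318 CPM against 513, 613 and 589 CPM. Krt19 was at 44.7, 18.1 and 22.4 CPM against 548, 274 and 194 CPM, and Krt7 at 41.8, 13.6 and 27.3 CPM against 181, 296 and 122 CPM. Krt8 (6.03, 0.0 and 96.9 CPM against 339, 93.8 and 309 CPM in these libraries) and Krt23 (5.97, 4.52 and 12.4 against 169, 159 and 287 CPM) followed the same order. For Krt23, the Gabrp-led values of WT replicates 2 and 5 exceeded those of sustentacular-like cells. Krt5 in the Gabrp-led cluster was at 1682, 1703 and 1062 CPM and Krt15 at 1623, 938 and 1378 CPM, both above basal-like cells in these 3 libraries, while Krt14 was above them in WT replicate 4 alone. In Prokr2Cre library 1 the values for Krt6a were 18.9 and 623 CPM and for Krt19 41.6 and 767 CPM, the same order. Clusters were found with genes of the same cells, so these values are a description.

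Suprabasal keratins were concentrated in surface-like cells, at levels that varied between libraries. Krt10 had 311, 1029, 2290 and 1020 CPM there, and Krt1, its type II partner, 260, 447, 2021 and 698 CPM. Basal-like cells had 31.4, 83.9, 35.6 and 62.7 CPM of Krt10 and 16.6, 25.6, 11.1 and 16.2 CPM of Krt1. In stratified cells as a whole Krt1 was higher than in simple nasal-like cells by 4.50 ± 0.40 (adjusted p = 8.98e-05) and Krt10 by 3.21 ± 0.33 (adjusted p = 0.000173) on the log2 scale. Cells with at least 2000 UMIs were thinned to that number, and cells with fewer were left out of the shares after thinning. Of the thinned surface-like cells 25.8% (mean of 4 libraries, range 9.38% to 44.7%) had UMIs of both Krt1 and Krt10, against 0.88% of basal-like cells. Krt2 and Krt9, late and palm or sole suprabasal keratins, had 3 and 2 UMIs in all WT cells, and Krt77 had 54.

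Of the surface and stress keratins, Krt17 was the most abundant. It was at 3170, 2075, 1676 and 4231 CPM in surface-like cells and 432, 315, 517 and 578 CPM in simple nasal-like cells. Stratified cells exceeded simple nasal-like cells by 1.67 ± 0.23 on the log2 scale (adjusted p = 0.000987), which was not called without the library block (1.84, adjusted p = 0.0514). Krt6a was at 272, 368, 236 and 388 CPM in surface-like cells, and at most 20.3 CPM in basal-like and 11.5 CPM in simple nasal-like cells. In each WT library 1 surface-like cell held many of the Krt6a UMIs: 201 of 603, 45 of 465, 50 of 93 and 49 of 227. The stratified to simple difference of Krt6a was 4.36 ± 0.28 (adjusted p = 3.19e-05). Krt16, the type I partner of Krt6a, was at 34.1, 0.86, 8.34 and 75.7 CPM in surface-like cells, high in WT replicates 1 and 5 alone. A single surface-like cell held 44 of the 71 Krt16 UMIs of WT replicate 1, and another 39 of the 44 of WT replicate 5. Krt6b had 1 UMI. Krt6a and Krt6b, and likewise Krt14, Krt16, Krt17 and Krt42, are near copies of each other in sequence, so the split of reads between them is uncertain. Krt75, a follicle sheath keratin, had 1.89 CPM in epithelial and 0.28 CPM in non-epithelial cells (2.68 ± 0.45 on the log2 scale, adjusted p = 0.00382).

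The mucosal keratins Krt4 and Krt13, a pair of the lining of mouth and gullet, were rare and came mainly from WT replicate 1. That library held 101 of 126 Krt4 UMIs and 164 of 176 Krt13 UMIs of WT cells. Krt4 was at 24.6, 4.16, 1.37 and 2.55 CPM in simple nasal-like cells and at 21.0 CPM in the ciliated-like cells of WT replicate 1. Krt13 was at 79.4 and 10.3 CPM in surface-like cells of WT replicates 1 and 2 and at 0 in replicates 4 and 5. Summed over WT cells, surface-like cells held 17 UMIs of Krt4 and 168 of Krt13, and simple nasal-like cells 63 of Krt4 and 1 of Krt13. In WT replicate 1 a single surface-like cell held 86 of the 164 Krt13 UMIs. Krt80, a type II keratin of many epithelia, was at 4.58, 18.0, 16.7 and 22.1 CPM in surface-like cells and at most 4.45 CPM in basal-like cells.

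**Figure D2:**
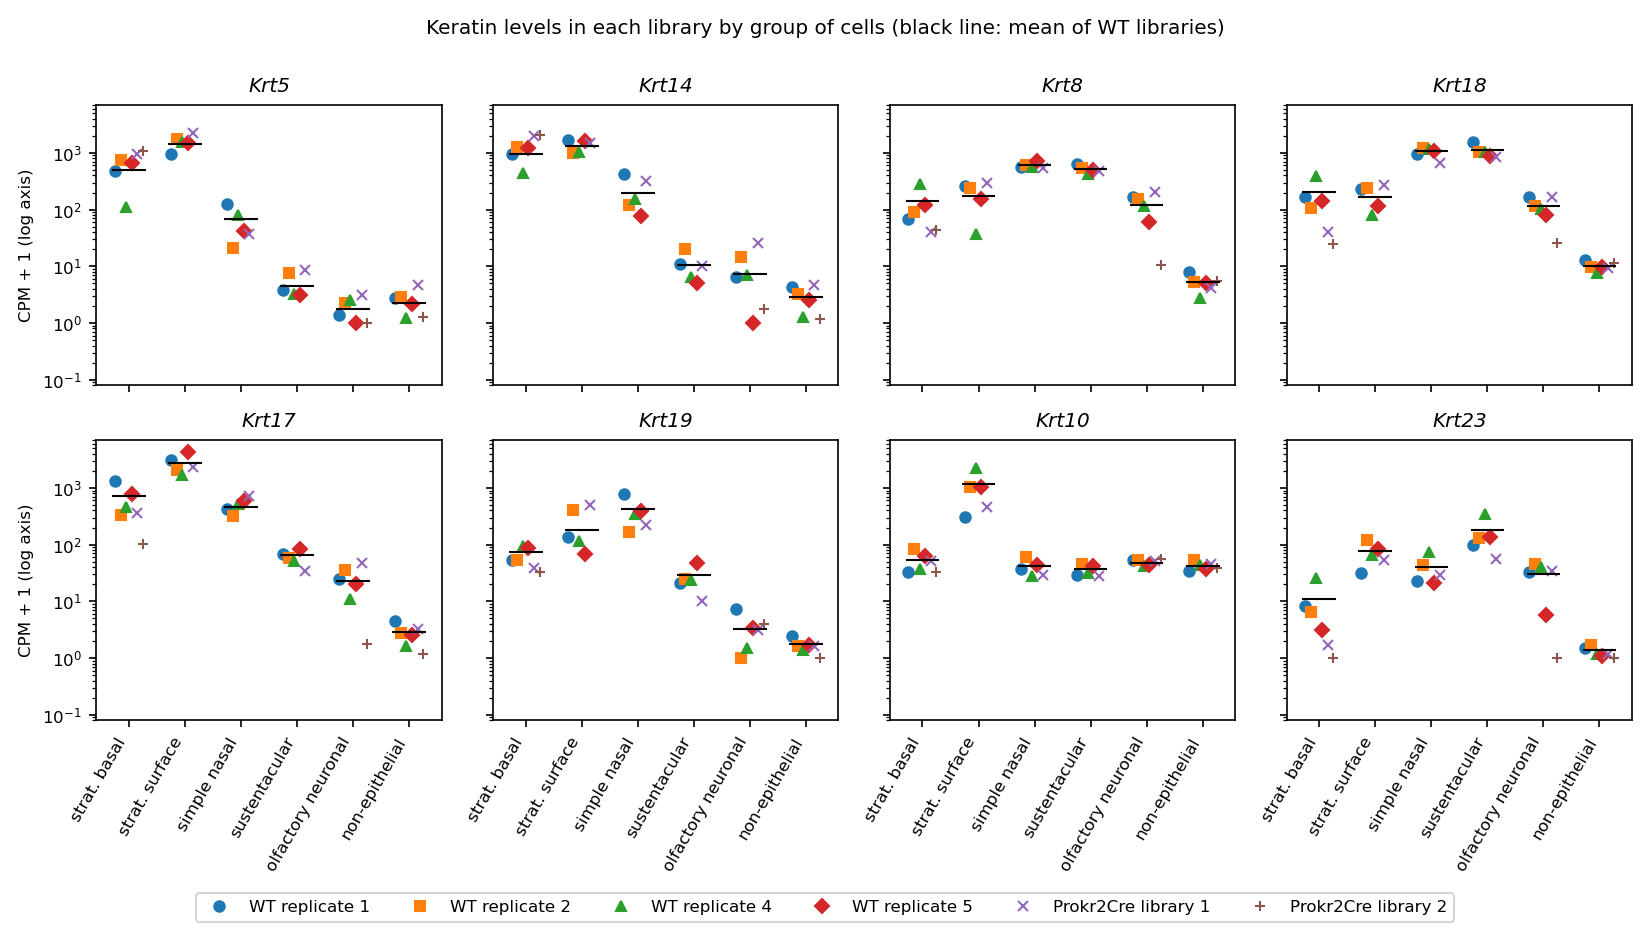
Levels of 8 keratins by group of cells in each library: the vertical axis is CPM plus 1 on a log axis, symbols are libraries, and black lines are means of the 4 WT libraries; only groups of at least 10 cells are drawn. Krt5 and Krt14 step down from stratified to simple nasal and sustentacular cells, Krt8 and Krt18 peak in simple nasal and sustentacular cells, Krt23 has its highest mean in sustentacular cells, and Krt10 is level outside the surface group.

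In the test of stratified against simple nasal-like cells as a whole, 11.1% of 9663 genes were called, 4.65% as higher and 6.46% as lower. Of the 12 keratins tested, 7 were higher (Krt1, Krt5, Krt6a, Krt10, Krt14, Krt15 and Krt17) and 4 lower (Krt7, Krt8, Krt18 and Krt19), with Krt23 not called (-0.14 ± 0.20, adjusted p = 0.719). Without overlap between libraries were 7 higher and 3 lower keratins, against 2.75% and 5.75% of all genes. As in the epithelial test, these counts describe the keratins that passed the low-count filter, which some could pass through the class where they are high. The weakest of the lower calls was Krt7 (-0.92 ± 0.26, adjusted p = 0.0447), whose libraries overlapped. Its call was lost in 8 of 12 alternatives, among them DESeq2, leaving out WT replicate 2 or WT replicate 5, and single assignment by markers, with values of -1.18 to -0.26. The call on Krt19 (-1.73 ± 0.35, adjusted p = 0.00951) was lost in 5 of 12, among them without WT replicate 5, at resolution 2 (-0.76) and with single assignment (-0.54).

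Sustentacular-like against simple nasal-like cells gave calls for 14.9% of 9690 genes, 7.55% higher and 7.3% lower. Of 11 keratins tested, Krt23 was higher and 7 were lower: Krt15 by 6.26 ± 0.40, Krt14 by 4.01 ± 0.37, Krt19 by 3.83 ± 0.32, Krt5 by 3.74 ± 0.49, Krt17 by 2.76 ± 0.13, Krt7 by 1.23 ± 0.16 and Krt1 by 1.13 ± 0.33 on the log2 scale (SE). All had adjusted p-values of at most 0.0393. The libraries overlapped for Krt7 and Krt1, and neither was called without the library block (Krt7 -1.23, adjusted p = 0.154, and Krt1 -1.27, adjusted p = 0.312). Without overlap between libraries were 1 higher and 5 lower keratins, against 3.94% and 5.35% of all genes. A keratin high in 1 class could pass the low-count filter through that class, so these counts describe the tested keratins and not the family. Krt8, Krt10 (-0.21 ± 0.15, adjusted p = 0.414) and Krt18 were not called. With cells assigned to classes singly by markers, in place of by cluster, the differences of Krt14 (-0.34, adjusted p = 0.638) and Krt5 (-0.24, adjusted p = 0.76) were no longer called, and those of Krt15 (-1.55), Krt17 (-1.15) and Krt19 (-2.75) were smaller and still called. The call on Krt1 was lost in 5 of 7 alternatives, among them without WT replicate 4 and without WT replicate 5.

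The olfactory neuronal lineage had low levels of simple keratins, and what these owe to free RNA or doublets was not tested. Krt8 was at 163, 150, 115 and 58.9 CPM in its cells and at 6.87, 4.28, 1.80 and 3.99 CPM in non-epithelial cells, higher by 4.77 ± 0.32 on the log2 scale (edgeR, adjusted p = 5.12e-06). Krt18 was at 166, 114, 100.4 and 80.1 CPM against 11.8, 8.54, 6.64 and 8.67 CPM (3.53 ± 0.16, adjusted p = 7.94e-07). The groups did not overlap for either gene, but both olfactory levels lay below those of sustentacular-like cells in every WT library. Krt23 was at 31.8, 44.1, 38.8 and 4.71 CPM against at most 0.67 CPM (6.21 ± 0.38, adjusted p = 3.7e-06). Within the lineage Krt23 was at 65.2, 58.4, 53.0 and 4.07 CPM in progenitors and 6.87, 2.37, 14.97 and 5.59 CPM in neurons. Progenitors were thus higher in WT replicates 1, 2 and 4 and not in replicate 5, which held just 17 progenitors. Krt17 (3.48 ± 0.36, adjusted p = 6.33e-05) and Krt7 (3.82 ± 0.58, adjusted p = 0.000571) were also called higher. Krt23 and Krt7, at most 0.67 and 1.11 CPM in non-epithelial cells, passed the low-count filter through the olfactory cells. The tests of Krt23 and Krt7 therefore had to show a difference. Krt17 was at 48.6, 44.6, 12.2 and 28.5 CPM in progenitors and 5.50, 7.10, 6.80 and 5.59 CPM in neurons, without overlap.

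Krt90, a keratin with few UMIs, lay mostly in the olfactory lineage. It had 35 UMIs in WT cells, of which 25 were in olfactory neuron-like and 1 in progenitor-like cells. The olfactory level was 7.86, 0.60, 1.53 and 4.71 CPM against at most 0.03 CPM in non-epithelial cells, a difference of 6.48 ± 0.76 on the log2 scale (adjusted p = 0.000125). WT replicate 1 held 20 of the olfactory UMIs, and without it, with single assignment and without the unnamed clusters Krt90 did not pass the low-count filter. It could pass that filter only through the olfactory cells, so the test had to show a difference. Prokr2Cre library 2, with 191 neuron-like cells among its 1099, held 34 Krt90 UMIs, all of them in olfactory cells. Over all kept cells this was 2.1 CPM, against 0.052 to 0.31 CPM in the WT libraries. Olfactory cells were a smaller part of those libraries (226 of 7215 cells in WT replicate 1), so these levels do not compare like cells. Krt72, a follicle sheath keratin, likewise had 13 of its 29 UMIs in olfactory neuron-like cells, too few for the test. WT replicate 1 gave 12 of these 13, and WT replicates 2 and 5 gave none. In this comparison 48.4% of 12961 genes were called, 22.8% higher and 25.6% lower, and of 12 keratins tested 7 were higher and Krt15 lower. As in the epithelial test, this count describes the keratins that passed the filter. Of the keratins tested, 6 were higher and none lower without overlap between libraries, against 19.0% and 14.5% of all genes. The Krt15 call rested on 2 UMIs in olfactory cells against 363 elsewhere, a ratio of 6.70 (counting interval 1.84 to 55.5), and was lost without WT replicate 1, without WT replicate 5 and under 5 other settings. Krt14 (1.93 ± 0.70, adjusted p = 0.046) was lost without WT replicate 2, without WT replicate 4, without the library block and with DESeq2. Krt1, Krt5, Krt10 and Krt19 were not called. Krt1, at -1.55 ± 0.64 (adjusted p = 0.0734), was called lower without WT replicate 1 (-3.21, adjusted p = 0.00443) and under 5 other settings, with values of -3.21 to -1.05 over all 13. Krt19 was called higher with doublets kept (1.62, adjusted p = 0.0239) and Krt5 with cells assigned singly by markers (1.93, adjusted p = 0.0292).

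The Prokr2Cre libraries differed from each other in these cells. Library 1, with 37 olfactory cells, had 204 CPM of Krt8 and 164 CPM of Krt18, and library 2, with 193, had 9.53 and 24.4 CPM. All but 2 of the olfactory cells of library 2 were neuron-like, and its Krt8 level in neuron-like cells was 9.35 CPM against 22.4 to 178 CPM in those of the WT libraries. Sorting, makeup and capture of these libraries cannot be told apart.

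**Figure D3:**
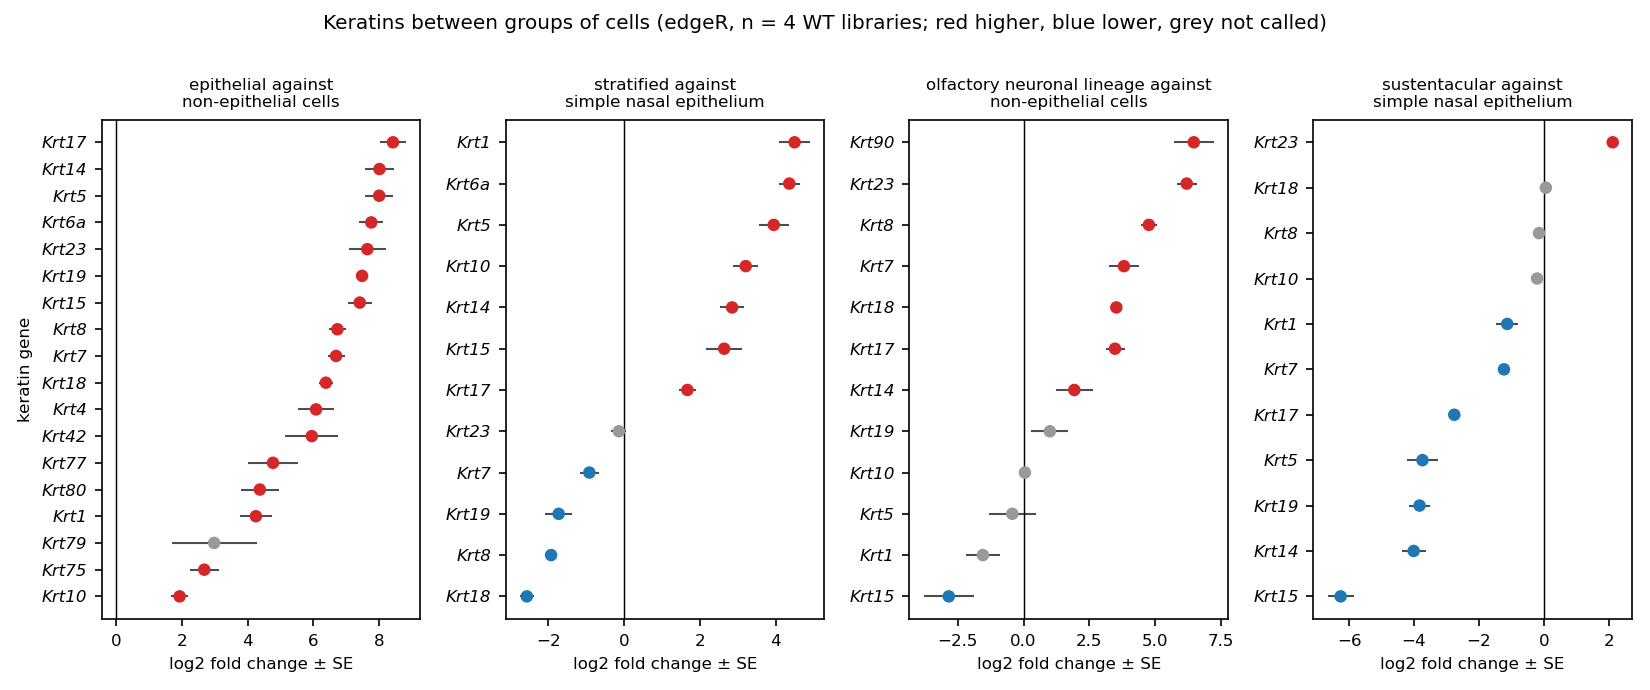
Log2 fold changes of the tested keratins, 1 panel per comparison, as points with standard errors (edgeR, n = 4 WT libraries); red points were called higher in the group named at the start of the panel title, blue points lower, grey points not called. All points of the leftmost panel lie right of 0, while the other panels hold keratins on both sides.

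Krt10 was the most abundant keratin of non-epithelial cells. Of its 11860 UMIs in WT cells 7184 lay outside the epithelium and the olfactory lineage, and the epithelial share averaged 36.2% over the 4 libraries, against 88.2% for Krt8, 97.2% for Krt14 and 97.7% for Krt5. Non-epithelial cells had 32.7, 51.5, 43.2 and 36.2 CPM of Krt10, within the range of simple nasal-like cells (27.4 to 60.04 CPM). The olfactory range of 41.8 to 53.2 CPM overlapped these values, with WT replicates 1 and 5 of the non-epithelial cells below it. The test of olfactory against non-epithelial cells gave 0.05 ± 0.14 (adjusted p = 0.777). Krt10 made up 59.8% of the keratin UMIs of non-epithelial cells, 13.9% of those of olfactory cells and 4.91% of those of epithelial cells, while Krt14 made up 2.56% and 12.4% of non-epithelial and epithelial keratin UMIs and Krt17 2.61% and 17.2%.

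The level of Krt10 also differed between non-epithelial classes. The mesenchyme-like class is broad: 7 of its 17 clusters met under 3 of its markers, and in 4 the markers of another class ranked first. These cells had 36.3, 58.0, 47.5 and 40.2 CPM, endothelial-like cells 18.9, 16.4, 12.3 and 7.54 CPM and immune-like cells 11.8, 13.6, 6.997 and 14.6 CPM of Krt10. The mesenchyme-like values did not overlap either of the others, and over the 9 clusters led by at least 3 of its markers they were 36.1, 59.2, 45.2 and 40.8 CPM. Olfactory neuron-like cells, at 55.7, 73.4, 50.3 and 55.9 CPM of Krt10, exceeded immune-like and endothelial-like cells in every library. After thinning to 2000 UMIs, 8.21% of non-epithelial cells (range 5.91% to 10.2%) had a Krt10 UMI, against 0.32% with Krt14, 0.23% with Krt5, 0.88% with Krt8 and 1.72% with Krt18. Before thinning 26.1% of non-epithelial cells had a Krt10 UMI. Krt1 showed a weaker form of this distribution, with 74.1% of its UMIs in epithelial cells (range 65.8% to 86.0%) and 2.61, 8.99, 6.67 and 8.70 CPM in bone-like cells. What the keratin UMIs of non-epithelial cells, Krt10 included, owe to free RNA or doublets was not tested.

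**Figure D4:**
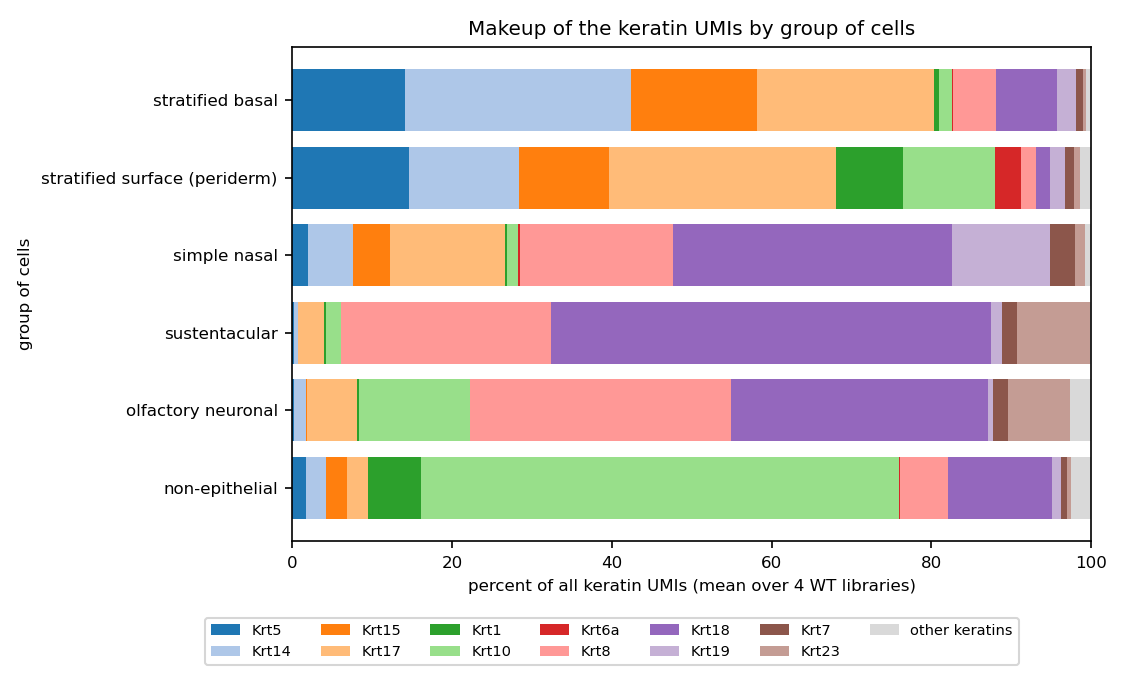
Makeup of keratin UMIs by group of cells: each bar adds up the mean percent of keratin UMIs per gene over the 4 WT libraries, with colours for genes and grey for the remaining keratins. Krt10 takes 59.8% of the non-epithelial bar and Krt8 with Krt18 most of the sustentacular bar.

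Krt79 stood apart in another way. This type II keratin, known from the openings of hair follicles, was at 2.54, 30.9, 0.0 and 68.3 CPM in surface-like cells, where the libraries disagreed. Pericyte-like cells, the contractile cells around small vessels, had 14.7, 7.11 and 17.4 CPM of Krt79 in WT replicates 1, 2 and 4, from 18, 3 and 4 UMIs. WT replicate 5 had 7 such cells and none of the UMIs. In Prokr2Cre library 2, 1 of the 4 pericyte-like cells held 7 UMIs of Krt79 and the others none. The olfactory cells of that library held 18 of its 35 Krt79 UMIs, while those of the WT libraries held 8, 0, 1 and 1. Single cells also weighed on the surface-like values, with 14 of the 46 Krt79 UMIs of WT replicate 2 and 20 of the 43 of WT replicate 5 in 1 cell each. The epithelial share of Krt79 ran from 5.88% to 90.7% between WT libraries.

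Keratins were also counted per cell. After thinning to 2000 UMIs, 96.3% of epithelial cells had a UMI of any keratin, against 34.8% of olfactory and 13.0% of non-epithelial cells (means of 4 libraries). These are shares of the cells with at least 2000 UMIs. In WT replicate 5 these were 213 of 341 epithelial cells, and the share was 94.4% thinned against 88.6% of all 341 unthinned. Epithelial cells had UMIs of 2 to 3 keratin genes at the median. Krt5 and Krt14 were found together in 45.5% of stratified cells (range 31.9% to 59.3%), in 5.53% of simple nasal-like cells (0% to 15.5%) and in 0.06% of sustentacular-like cells. Krt8 and Krt18 were found together in 57.6% of simple nasal-like, 59.1% of sustentacular-like and 9.57% of stratified cells. Cells with both Krt8 and Krt14, which are not usual partners, made up 12.5% of simple nasal-like, 16.2% of basal-like and 0.95% of sustentacular-like cells. A missing UMI at this depth does not show that a cell lacks the transcript.

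Likeness was measured between keratins of opposite type, since filaments pair type I with type II. Across the 63 combinations of library and class with at least 10 cells, Krt8 was most like Krt18 (Pearson r = 0.951 of log2(CPM + 1)), and Krt5 most like Krt15 (r = 0.949) and Krt14 (r = 0.936). Of the opposite type, Krt1 was most like Krt10 (r = 0.790), Krt16 most like Krt6a (r = 0.792), Krt23 most like Krt8 (r = 0.880), Krt19 most like Krt7 (r = 0.844) and Krt17 most like Krt5 (r = 0.894). Some keratins were closer to one of their own type: Krt1 to Krt6a (r = 0.828), Krt19 to Krt17 (r = 0.869) and Krt17 to Krt14 (r = 0.914). The highest value of Krt79 with a type I keratin was 0.445, with Krt10. The points share libraries and depth, so these values are descriptions.

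Of the 35 members under 100 UMIs, several lay mostly outside the epithelium. Krt87, a hair keratin, had 38 of its 43 UMIs in non-epithelial cells, 23 of them in cartilage-like cells. WT replicate 1 held 26 of the 38, and both Krt87 UMIs of WT replicate 5 were epithelial. Krt222, a keratin-like gene without a filament partner of its own, had 36 of 44 UMIs in non-epithelial cells. Krt73, a sheath keratin, had 33 of 46 UMIs in surface-like cells, 16 of all its UMIs in a single cell of WT replicate 2, the library that held 30 of the 46. Krt27 had 12 of 15 and Krt24 16 of 29 UMIs in surface-like cells, and Krt36 had 9 of 24 there. Of the 24 Krt36 UMIs, 21 came from WT replicate 1, and the Krt24 UMIs of epithelial cells came mostly from WT replicates 2 (11) and 4 (8). Krt20, the keratin of gut lining and Merkel cells, had 22 UMIs spread over 7 classes.

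Genes that work with keratins were described from lists, in the same 4 tests. The median log2 fold change of all genes tested was -0.01 for epithelial, -0.01 for stratified, -0.05 for olfactory and 0.00 for sustentacular cells against their comparison group. The shares of all genes called higher and lower, given above, were 22.0% and 22.8%, 4.65% and 6.46%, 22.8% and 25.6%, and 7.55% and 7.3% in the same order, and the lists were not tested against them. Genes under the low-count filter were left out, and a gene that passes it only through the group where it is high had to differ, so the counts describe the tested genes and not the lists. Of 16 desmosome genes 13, 13, 9 and 9 were tested in that order, of 6 hemidesmosome genes 6, 6, 5 and 5, of 18 cornified envelope genes 10, 7, 5 and 6, and of 16 other intermediate filament genes 14, 5, 14 and 5. Of the desmosome genes, which tie keratin filaments to cell junctions, 13 of 13 tested were higher in epithelial than in non-epithelial cells (median log2 fold change 6.76). Of these, 10 of 13 were higher and 1 lower in stratified than in simple nasal-like cells (median 2.19). Dsg1a and Dsg1b, desmogleins of the upper layers, had no UMI in simple nasal-like cells and were at least 67.9-fold and at least 29.2-fold higher in stratified cells, against a floor of 3 UMIs over the group. Pkp2, the plakophilin of simple epithelia, was lower by 2.24 ± 0.22 (adjusted p = 0.000138). In sustentacular-like cells 1 of 9 desmosome genes was higher and 5 lower than in simple nasal-like cells, with Perp lower by 3.60 ± 0.16 (adjusted p = 2.64e-07). In the olfactory lineage 6 of 9 were higher than in non-epithelial cells and 1 lower, with Pkp2 higher by 5.17 ± 0.57 (adjusted p = 8.73e-05) and Dsg2 by 4.87 ± 0.40 (adjusted p = 1.68e-05).

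Hemidesmosome genes anchor keratins to the basement membrane. Of 6 tested, 4 were higher and none lower in epithelial cells (median 1.78), and 5 of 6 were higher and none lower in stratified than in simple nasal-like cells (median 1.16). The largest of these differences was that of Col17a1, a collagen of the hemidesmosome (2.37 ± 0.60, adjusted p = 0.0275). In WT replicate 1 its levels were 54.1 CPM in stratified and 53.9 CPM in simple nasal-like cells, and the groups overlapped. Sustentacular-like cells had none higher and 3 of 5 lower, among them Itgb4, an integrin of that junction, by 1.41 ± 0.27 (adjusted p = 0.00322). In the olfactory lineage none of 5 was higher and 1, Plec, was lower by 2.12 ± 0.18 (adjusted p = 1.66e-05).

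Cornified envelope genes build the protein shell of the outermost cells. In epithelial cells 9 of 10 were higher and none lower (median 4.25), and in stratified against simple nasal-like cells 7 of 7 were higher (median 1.40). Lor, the gene of loricrin, was higher in stratified cells by 4.06 ± 0.56 (adjusted p = 0.00104) and Sbsn by 2.64 ± 0.31 (adjusted p = 0.000397). Sustentacular-like cells had none of 6 higher and 4 lower than simple nasal-like cells, with Sfn, which makes 14-3-3 sigma, lower by 3.67 ± 0.18 (adjusted p = 2.64e-07). In the olfactory lineage 1 of 5 was higher and 1 lower, and the higher gene was Ppl, periplakin, by 4.08 ± 0.35 (adjusted p = 2.24e-05).

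The list of other intermediate filament genes had calls in both directions in all 4 tests. In epithelial cells 2 of 14 were higher and 6 lower (median -0.36), among the latter Vim, vimentin of mesenchyme, by 2.87 ± 0.14 (adjusted p = 4.31e-05). In the olfactory lineage 4 of 14 were higher and 4 lower (median 0.20), shares near the 22.8% and 25.6% of all genes. Prph, peripherin, was higher there by 7.22 ± 0.26 (adjusted p = 4.81e-07) and Ina, internexin, by 6.13 ± 0.16 (adjusted p = 1.88e-07), while Lmna, lamin A, was lower by 3.62 ± 0.14 (adjusted p = 6.09e-07). Stratified cells had 2 of 5 higher and 1 lower than simple nasal-like cells (median 0.12), with Vim higher by 1.28 ± 0.20 (adjusted p = 0.00197). Vim (1.96 ± 0.17, adjusted p = 1.26e-05) and Nes, nestin of progenitors (1.95 ± 0.16, adjusted p = 7.37e-06), were higher in sustentacular-like than in simple nasal-like cells, where 2 of 5 genes of the list were higher and 1 lower (median 0.26).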

How the data were processed

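Gene by cell matrices of raw UMI counts, deposited by the authors with no normalization, were used for 6 of 7 libraries. Per the file headers they were made with Cell Ranger 6.0.1 (WT replicate 1), 7.0.0 (other WT) and 6.1.2 (Prokr2Cre), whereas the submitters' processing notes name Cell Ranger 4, Seurat 4.3.0 and build mm10. Whether intronic reads were counted is not given in the sources used here.

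Kept barcodes had 500 or more genes and no more than 10% of UMIs from mitochondrial genes. Scrublet's automatic threshold marked at most 0.333% of barcodes, so the highest scores were removed at 0.8% per 1000 barcodes (0.998% to 9.07%). Clusters came from scanpy 1.11.5 (2000 variable genes, 30 components, 20 neighbours, Leiden resolution 1, second round within the epithelial and neural clusters), with keratins and partner lists left out, and were named "-like" from fixed markers. The minimum for a name was set after clusters were seen, and names can differ from the authors' own.

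UMIs summed per library and class (at least 10 cells of both) were tested with edgeR 4.0.16 in R 4.3.3 (TMM, filterByExpr, quasi-likelihood, Benjamini-Hochberg over all genes tested, threshold 0.05), checked on simulated data. Genes used for clustering or naming were not tested. The library is a block because both classes come from 1 suspension. Labels do not say which nose gave which library, so p-values measure the spread between these libraries, which may be partly technical. Intervals cover counting error only. Alternatives are listed in the closing section. Members with at least 100 UMIs are described with values, and of each partner list the 2 largest and 2 smallest called differences were eligible to be named. Members and lists were chosen with earlier results of these data known.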

Additional observations from a re-analysis of the deposited data

Results flagged for a closer look

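The 18 described keratins and the sum of all keratins were screened in epithelial, olfactory and non-epithelial cells, leaving out groups with no UMI. Of these 54 groups of 4 WT values, 7 had 1 library far from the others by Dixon's criterion. Chance gives about 1 in 20 for continuous values, a rate that does not apply to the 5 groups whose other 3 libraries were at 0, since any UMI then meets the criterion. Krt4 was at 8.68 CPM in epithelial cells of WT replicate 1 against 0.53 to 1.66 in the other libraries. Krt13 was at 14.2 CPM in the same cells against 0 to 1.05. The remaining values rest on few UMIs and stand against 0 in the other 3 libraries. Krt13 was at 1.18 CPM in olfactory and 0.0632 CPM in non-epithelial cells of WT replicate 1, and Krt16 was at 0.0632 CPM in its non-epithelial cells. Krt15 was at 1.21 CPM in olfactory cells of WT replicate 2, and Krt75 at 0.51 CPM in those of WT replicate 4. Of these values 5 belong to WT replicate 1, the library whose cells mostly form clusters of their own, and the part of that in them was not tested.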

How the results depend on the processing

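Of 641 recomputed keratin results (53 pairs of gene and comparison), 582 kept their sign and their side of the threshold, 33 lost a call, 10 gained one and 16 changed sign. For epithelial against non-epithelial cells none lost a call, and counts of all genes called were 5972, 3003 without the replicate block and 3774 to 5939 leaving out a library. For stratified against simple nasal-like cells they were 1073, 255 without the block, 677 with DESeq2 1.42.0, 1664 with no low-count filter, 605 with a stricter cell filter (1000 genes, 5% mitochondrial UMIs; 3 libraries, since WT replicate 1 then had under 10 simple nasal-like cells), 1676 with cells assigned singly by markers and 401 to 1063 leaving out a library (lowest without WT replicate 2). For olfactory cells they were 6278 and 3965 without the block. For sustentacular-like cells they were 1439, 333 without the block, 864 with DESeq2, 953 with the stricter cell filter (the same 3 libraries), 679 at resolution 2, 723 with single assignment and 786 to 1443 leaving out a library. Keratins called higher rose from 17 to 26 (epithelial) and from 7 to 12 (stratified) with no filter, and in stratified cells fell from 7 to 5 without the block, where Krt15 and Krt17 were not called. Keratins called lower in stratified cells fell from 4 to 2 without the block, with the stricter cell filter (3 libraries) and at resolution 2, and were 2 to 4 leaving out a library. In olfactory cells the 1 lower call became 0 without the block and with doublets kept, 2 with no filter and at resolution 2, and 0 to 1 leaving out a library, and in sustentacular-like cells 7 became 4 with single assignment, where Krt1, Krt5 and Krt14 were not called.

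Summed keratin levels moved by more than 1 SD for non-epithelial cells to 91.8 CPM, stratified cells to 7346 and olfactory cells to 652 with single assignment (42.3% of cells had 2 classes nearly tied), for olfactory cells to 536 with doublets kept, and for simple nasal-like cells to 2728 (stricter filter, 3 libraries without WT replicate 1), 2634 (resolution 2) and 2501 (single assignment). Cells with any keratin UMI were 87.02%, 21.2% and 6.83% of epithelial, olfactory and non-epithelial cells at 1000 UMIs (cells with fewer left out), and 68.1% and 36.9% of the latter 2 unthinned. Unthinned, the epithelial share ran from 88.6% to 99.5% over the WT libraries. Sign changes, all in results not called except Krt15, were: olfactory Krt10 at -0.04 (no filter), -0.07 to 0.09 leaving out a library, -0.23 (stricter filter), -0.02 (doublets kept), -0.03 (resolution 2) and -0.12 (single assignment), olfactory Krt15 at 1.64 (single assignment), olfactory Krt19 at -0.15 (without WT replicate 1) to 1.45 leaving out a library, olfactory Krt5 at -1.68 to 0.36 (without WT replicate 1) leaving out a library, 1.29 with doublets kept and 1.93 with single assignment, Krt23 at 0.06 in stratified cells without WT replicate 4, and in sustentacular-like cells Krt8 at 0.03 (resolution 2) and Krt18 at -0.18 (without WT replicate 1) to 0.14 leaving out a library and -0.09 (stricter filter). The causes were not tested. With doublets kept, the sustentacular-like test had too few libraries with 10 cells and was not run. The stratified test with doublets kept also used 3 libraries, without WT replicate 1. Leaving out the unnamed clusters, chosen after seeing the data, gave 17 keratins higher in epithelial cells and gave 6 higher and 1 lower of 11 in olfactory cells. The mesenchyme clusters led by their markers, also chosen after seeing the data, had a mean of 45.3 CPM of Krt10 against 45.5 in the whole class.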
